A study of Arabidopsis thaliana with 8 samples.

Results

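Pseudogene probe sets were followed on Affymetrix arrays of Arabidopsis thaliana roots and root protoplasts. A probe set is the group of short array probes that together read 1 transcript. The members are the probe sets that the platform annotation assigns to a single gene and whose gene, joined by gene ID, has a pseudogene biotype in the RefSeq gene table. There were 989 such probe sets, each of a different locus, among 22746 probe sets on the array after its controls were set aside. The biotype was pseudogene for 923 of them and transcribed pseudogene for 66. RefSeq files Arabidopsis transposable element genes under the same biotype, and no field of the table used here separates them from other pseudogenes, so the members are described together. For comparison, 12443 single-gene probe sets were of protein-coding genes.

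Pseudogenes are decayed copies of genes, and many of those in plant genomes are remnants of transposons, elements that encode the proteins for their own copying or movement. Plants keep transposons silent with DNA methylation, histone H3 lysine 9 methylation and small RNAs. HIRA is a histone chaperone that places the histone variant H3.3 into chromatin outside DNA replication, and in fission yeast (Schizosaccharomyces pombe) it is needed to keep Tf2 retrotransposons silent. A protoplast is what remains of a plant cell once enzymes have digested its wall, a step that the series describes as setting off dedifferentiation.

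The 8 arrays fell into 4 groups of 2, roots and protoplasts of the wild type (WT) and roots and protoplasts of a hira background. Seeds of every group were kept cold for 4 days and seedlings were grown on upright MS plates, and the submitters' treatment label names enzyme digestion for the root samples too. The hira allele, the accession of either genotype and the plant age were not given in the sources used here. Whether replicates came from separate plants was not given either. A p-value here reflects the spread between the 2 arrays of a group, pooled over the 4 groups. The source of that spread may be technical. HIRA itself had no single-gene probe set, so its transcript could not be used to check the genotype labels.

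The values are log2 GCRMA values from which each probe set's median over the 8 arrays has been subtracted, so a value of 1 is 1 log2 unit above that probe set's own median. Differences between arrays can be read from them, and the expression level of a locus or its signal over background cannot. The SD of the difference between replicates over all probe sets was 0.309 in hira protoplasts and from 0.612 to 0.736 in the other groups. Over the pseudogene probe sets it ran from 0.103 in hira protoplasts to 0.182 in WT roots. Some technical controls stood apart by group. The BioB hybridization spike-in lay between -4.07 and -3.44 in hira protoplasts and between -0.61 and 1.44 on the other arrays, while BioC, BioDn and CreX lay between -0.32 and 0.07 in hira protoplasts. All of these spike-ins were highest in WT roots, at 0.55 to 1.44, and lay between -0.61 and 0.62 in WT protoplasts and hira roots. The difference between the 5′ and 3′ GAPDH probe sets, a sign of RNA integrity, was -2.24 and -2.19 in WT roots, 0.48 and 0.75 in WT protoplasts, and between -0.10 and 0.12 on the 4 hira arrays. Of 13 root markers 3 had a single-gene probe set. The root hair expansins EXP7 and EXP18 were lowest in hira protoplasts, at -0.97 and -1.54 for EXP7 and at -1.83 and -2.87 for EXP18, except that EXP7 was at -1.84 on 1 WT root array. The cortex marker CO2 ranged only from -0.12 to 0.16. The rubisco activase gene RCA, the 1 of 6 green tissue markers measured, ranged from -3.01 to 0.62 and differed by more than 3 log2 units between the hira root arrays.

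Most pseudogene probe sets hardly varied. Their range over the 8 arrays, the highest minus the lowest value, had a median of 0.129 log2 units with quartiles of 0.069 and 0.292, and the median range of protein-coding probe sets was 1.346. A range of 1 or more was found for 51 of the 989 pseudogene probe sets, or 5.16%, against 60.5% of all probe sets and 60% of protein-coding ones. The transcribed pseudogenes varied more often, 16 of 66 (24.2%) against 35 of 923 (3.79%). In detail, 388 members had a range under 0.1, 257 from 0.1 to 0.2, 207 from 0.2 to 0.5, 86 from 0.5 to 1, 37 from 1 to 2 and 14 a range of 2 or more. The members just inside the limit were AT5G35260 (1.1), AT4G08110 (1.08) and AT2G10840 (1.0), and those just outside were AT4G08710 (0.98), AT1G42580 (0.98) and AT1G35480 (0.96). Of the 51 varying members, 43 were read by ordinary probe sets, 5 by sets whose name ends in _s_at, which can share a signal among related transcripts, and 3 by sets ending in _x_at, which hold probes that can bind other sequences. Values of these 8 are uncertain as to their source.

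**Figure D1:**
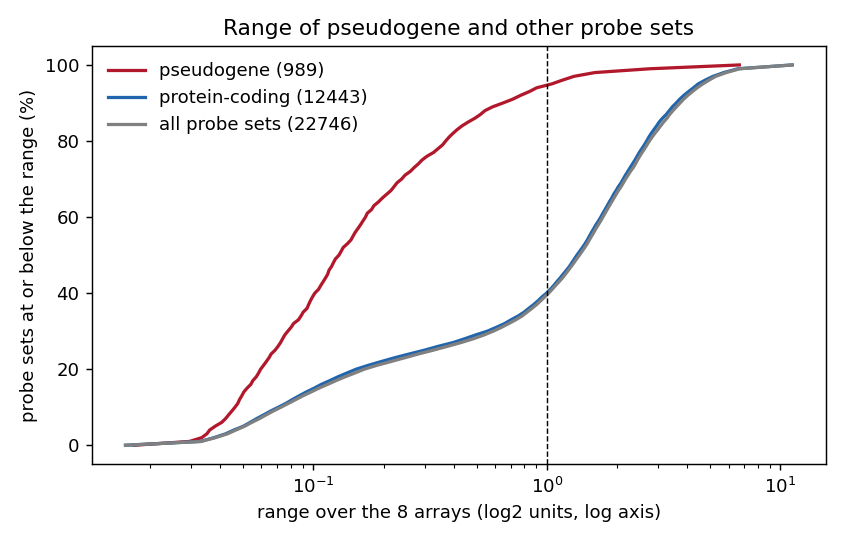
Share of probe sets (percent, vertical axis) at or below each range over the 8 arrays (log2 units, log horizontal axis) for 989 pseudogene, 12443 protein-coding and all 22746 probe sets; the dashed line marks a range of 1. The pseudogene curve climbs far to the left of the others, with 5.16% of its probe sets at or beyond the line against 60.5% of all.

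Among the 51 varying members, the highest group mean was in WT protoplasts for 24 (47.1%), in hira protoplasts for 12 (23.5%), in hira roots for 8 (15.7%) and in WT roots for 7 (13.7%). Over all 13758 varying probe sets the shares were 28.3% in WT protoplasts, 16.3% in hira protoplasts, 34.8% in hira roots and 20.6% in WT roots. The order depended on the limit and on single arrays. Of the 14 members with a range of at least 2, 7 were highest in hira protoplasts and 2 in WT protoplasts. Without WT protoplast replicate 2 the 24 became 15, and without hira root replicate 1 the 8 highest in hira roots became 5. Both arrays of the highest group lay above the other 6 arrays for 9, 5, 4 and 5 of the members, in the same order of groups. This was not counted over all varying probe sets, so these counts show nothing particular to pseudogenes. Of the 24 highest in WT protoplasts, 13 shared 1 profile, described with the hira protoplasts, and 11 did not, among them AT1G43590. Of those 11, 9 had their single highest value on WT protoplast replicate 1, and 4 were of the uncertain probe set types (AT5G28430, AT4G10580, AT3G31970 and AT2G14650). AT3G31970, for example, was at 1.47 and 0.37 in the WT protoplasts and between -0.18 and 0.12 elsewhere, a height that rests mostly on 1 array. Of the 51, 20 were called in none of the 5 comparisons that follow. The same share over all varying probe sets was not counted.

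AT1G43590 was the locus in which the genotypes stood farthest apart. Its centred log2 values were 2.45 and 2.63 in WT roots and 3.16 and 2.87 in WT protoplasts, and they were -2.45 and -2.45 in hira roots and -2.71 and -2.72 in hira protoplasts. The 4 WT arrays were all high, the 4 hira arrays were all low, and replicates were close together. Between the lowest WT and the highest hira array lay 4.90 log2 units, the largest such gap among all 22746 probe sets. The next gaps were 2.50 at AT5G39580 and 2.44 at AT3G50610. AT1G43590 also ranked first after quantile normalization and after recentring of the arrays, 2 settings added after its values were seen. The gap of the next pseudogene, AT4G08220, which was singled out after its values were seen, was 0.36. The 4 WT and 4 hira arrays did not overlap for 82 members (8.29%), near the 7.76% of all probe sets. In the fit, AT1G43590 was lower in hira, with a hira minus WT difference of -4.99 (SE 0.11) in roots and -5.73 (SE 0.11) in protoplasts and limma adjusted p-values of 0.000807 and 0.000629. The nearest measured loci on either side, AT1G43580 and AT1G43620, were not called between genotypes in roots or protoplasts, with adjusted p-values from 0.0736 to 0.851. The call in protoplasts passed under every alternative run, and that in roots was lost in a fit to the 4 root arrays alone (adjusted p = 0.0712). In these bulk samples, fewer cells of a type and less RNA per cell cannot be told apart, for this and every later locus.

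**Figure D2:**
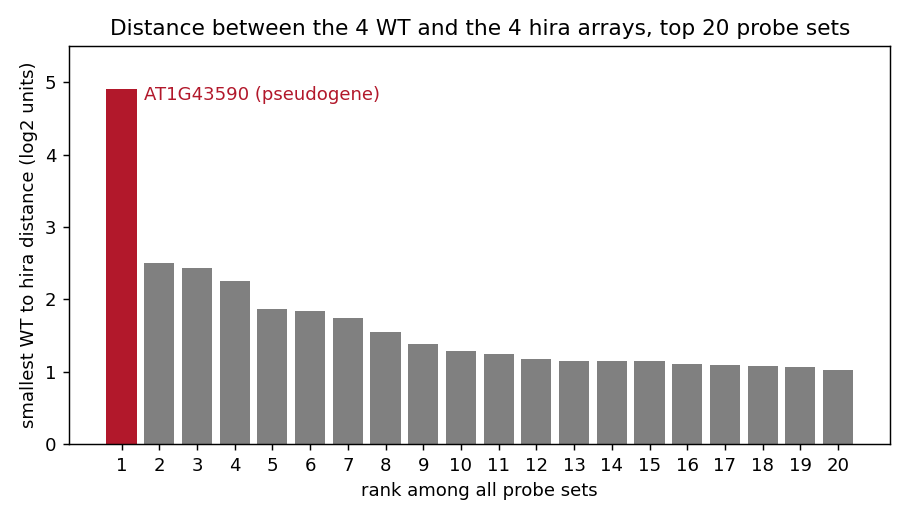
Gap between the lowest array of the higher genotype and the highest array of the lower one (log2 units, vertical axis) for the 20 probe sets with the widest gap, ranked from 1 (horizontal axis). The pseudogene AT1G43590 stands at 4.90 and the next probe set at 2.50; grey bars are not pseudogene probe sets.

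The comparison of samples labelled protoplast with those labelled root addresses the dedifferentiation that the series set out to study, with the limit that the treatment label does not set the roots apart as undigested. In WT, 28 pseudogene probe sets were called at a limma adjusted p under 0.05, 21 higher and 7 lower in protoplasts, which is 2.83% of members beside 25.6% of all probe sets (11.7% higher and 13.9% lower). Only 8 of the 28 changed by at least 1 log2 unit, which is 0.809% of members beside 20.5% of all probe sets called with such a change. The median change over all 989 members was 0.0612, against 0.0341 over all probe sets. In hira, 41 were called, 10 higher and 31 lower, or 4.15% beside 24.2% of all probe sets (12% higher and 12.2% lower). Of the 41, 10 changed by at least 1, which is 1.01% of members beside 18.5% of all probe sets. After quantile normalization the split in hira was 11 higher and 87 lower. The median over all members was -0.026, against -0.0202 over all probe sets. These counts moved by more than 1.5 times when single arrays were left out. The 28 of WT became 59 without WT protoplast replicate 1, 17 without WT root replicate 1, 15 without either hira root array and 12 without either hira protoplast array. The 41 of hira became 15 without hira root replicate 1, 13 without replicate 2, 7 without hira protoplast replicate 1 and 8 without replicate 2.

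A handful of loci changed strongly. AT1G35612 was at 1.75 and 2.46 in WT roots, -2.51 and -1.75 in WT protoplasts, 1.96 and 2.99 in hira roots, and -1.75 and -1.76 in hira protoplasts. It was high in roots and low in protoplasts of both genotypes, with no overlap. It fell by 4.23 (SE 0.48) in WT and fell by 4.23 (SE 0.48) in hira, with adjusted p-values of 0.00592 and 0.00643. CYTOSLEEPER (AT1G15300), a relative of hAT transposases, moved the other way. It was at -0.59 and -1.29 in WT roots, 1.24 and 0.59 in WT protoplasts, -1.26 and -1.26 in hira roots, and 2.04 and 1.99 in hira protoplasts. The 4 protoplast arrays lay above the 4 root arrays, and both hira protoplast arrays above the rest. It rose by 3.27 (SE 0.31, adjusted p = 0.00446) in hira and by 1.86 (SE 0.31, adjusted p = 0.0158) in WT, and the WT call was lost without WT protoplast replicate 1 and with only the 4 WT arrays in the fit (adjusted p = 0.106). AT1G35612 in both genotypes and CYTOSLEEPER in hira passed under every alternative run.

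AT3G17110 had the widest range of all members. It was at -0.77 and -1.0 in WT roots, 2.19 and 0.77 in WT protoplasts, -3.12 and -4.48 in hira roots, and 1.99 and 1.89 in hira protoplasts. The protoplast arrays of each genotype lay above its root arrays, and the hira roots were the lowest group. It rose by 5.74 (SE 0.64, adjusted p = 0.00635) in hira. The rise of AT3G48650 in hira came from a flat start. Its values lay between -0.04 and 0.02 on the 6 other arrays and at 2.13 and 1.48 in hira protoplasts, a rise of 1.84 (SE 0.21, adjusted p = 0.00704) against hira roots. AT3G07280 rose by 1.22 (SE 0.13, adjusted p = 0.00584) in hira, from -0.92 and -1.19 to 0.13 and 0.20. It was also called higher in WT protoplasts, by 0.64 (limma adjusted p = 0.0277), where it was at 0.55 and 0.31. That WT call was lost in 7 of 15 alternatives. The calls of AT3G17110, AT3G48650 and AT3G07280 in hira passed under every alternative run. AT1G20390 rose by 4.82 (SE 1.11, adjusted p = 0.0386) in hira, from -4.13 and -4.13 to 0.58 and 0.81, while the WT root arrays were at -3.72 and -0.32 and so far from each other. AT4G22020 rose by 3.90 (SE 0.85, adjusted p = 0.0336) with hira protoplasts at 0.04 and 2.02, and AT2G23330 by 2.14 (SE 0.41, adjusted p = 0.0242). AT1G34330 fell by 3.02 (SE 0.68, adjusted p = 0.037) in hira. Each of these last 4 calls was lost on leaving out any one of several arrays, among them both hira root arrays and hira protoplast replicate 2.

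Several of the falls from root to protoplast in WT were of loci that were highest in WT roots. AT5G40920 was at 2.32 and 2.61 in WT roots and between -0.08 and 0.05 on the other 6 arrays. Only the WT roots were high, and the other 6 arrays lay close together. It fell by 2.46 (SE 0.11, adjusted p = 0.000924) in WT. AT3G17050 was at 2.51 and 3.82 in WT roots and between -0.13 and 0.0041 elsewhere, and it fell by 3.16 (SE 0.43, adjusted p = 0.00913). AT5G10850 was at 1.17 and 1.12 in WT roots, -1.09 and -0.75 in WT protoplasts, and between -0.02 and 0.35 in hira, and it fell by 2.07 (SE 0.16, adjusted p = 0.00266). AT4G08110 was at 0.93 and 0.79 in WT roots and between -0.15 and 0.18 elsewhere, and it fell by 0.95 (SE 0.12, adjusted p = 0.00755). The calls of AT5G40920, AT5G10850 and AT4G08110 passed under every alternative run, and that of AT3G17050 was lost with only the 4 WT arrays in the fit (adjusted p = 0.0788). WT roots were also the arrays with the lowest 5′ minus 3′ GAPDH difference and the highest spike-ins, and the part of either in these values was not tested. AT5G28430, read by a shared-signal probe set, rose by 2.72 (SE 0.57, adjusted p = 0.0289), with 2.53 and 1.28 in WT protoplasts and -1.23 and -0.39 in WT roots. This call was lost in 7 of 15 alternatives, among them the replicate block (adjusted p = 0.0529), the 4 WT arrays alone (adjusted p = 0.118) and leaving out either WT root array, either hira protoplast array or WT protoplast replicate 1.

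**Figure D3:**
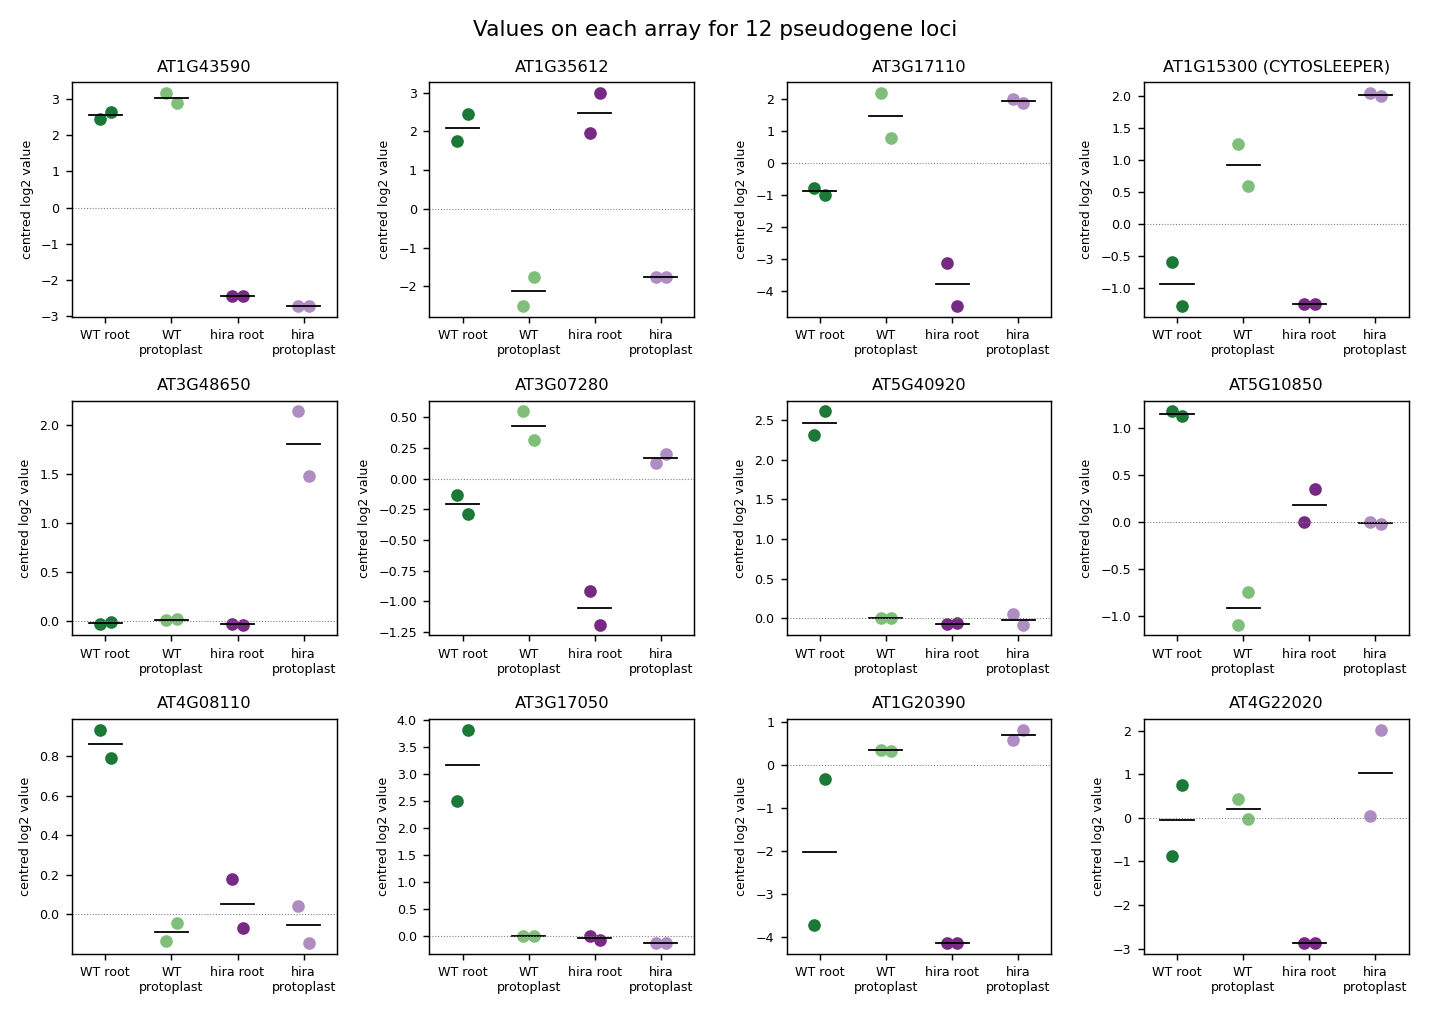
Centred log2 value (vertical axis, scaled per panel) of 12 pseudogene loci on each of the 8 arrays, by group (horizontal axis); points are arrays and bars are group means of 2 arrays. AT1G43590 separates the genotypes, AT1G35612 separates roots from protoplasts, AT5G40920 and AT3G17050 are high only in WT roots, and AT3G48650 is high only in hira protoplasts.

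Between hira and WT roots, 9 pseudogene probe sets were called, 0.91% beside 9.19% of all probe sets. Of these, 7 were lower and 2 higher in hira roots, beside 4.28% and 4.91% of all probe sets. By at least 1 log2 unit differed 3, or 0.303% of members beside 6.3% of all probe sets: AT1G43590, AT3G17050 and AT5G40920. AT3G17050 was lower, with a hira minus WT difference of -3.19 (SE 0.43, adjusted p = 0.0228), and so was AT5G40920, at -2.53 (SE 0.11, adjusted p = 0.00325). The same WT root arrays serve in this comparison and in that of protoplasts with roots in WT, so the fall of these loci in WT and their lower level in hira roots are not separate observations. AT3G17110, at -3.80 on average in hira roots and -0.88 in WT roots, was not among the 9. The 2 that were higher in hira roots, AT4G13120 by 0.69 (SE 0.11, adjusted p = 0.0301) and AT4G08220 by 0.64 (SE 0.06, adjusted p = 0.0138), are named after their values were seen. The protein-coding neighbour AT5G40910 ran parallel to AT5G40920, with 1.33 and 1.27 in WT roots and between -0.47 and 0.09 on the other 6 arrays. AT5G40910 was lower in hira roots, at a difference of -1.42 (adjusted p = 0.0199), and fell by 1.51 in WT (adjusted p = 0.00627). The nearest measured locus on the other side, AT5G40960, was at 0.04 and 0.09 in WT roots. It was not called between hira and WT roots, at -0.32 (adjusted p = 0.807), or in WT, at -1.43 (adjusted p = 0.0687). The median over all members was -0.00437 and the count of 9 became 2 without either hira protoplast array. The call of AT5G40920 was lost only with the 4 root arrays alone in the fit (adjusted p = 0.0843). That of AT3G17050 was lost in 7 of 15 alternatives, with the 4 root arrays alone (adjusted p = 0.152) and on leaving out any single array of the WT protoplasts, hira roots or hira protoplasts.

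In protoplasts the pseudogene probe sets were lower in hira by a small common amount. Called were 125 members, 4 higher and 121 lower in hira, which is 12.6% of members beside 8.29% of all probe sets. The 4 higher calls are 0.404%, beside 5.05% of all. The 121 lower calls are 12.2% of members, beside 3.24% of all probe sets and 2.76% of protein-coding ones. Most of these changes were small. Of the 125, 87 were under 0.5 log2 units (8.8% of members beside 1.52% of all probe sets) and 6 were at least 1 (0.607% beside 4.62%). After quantile normalization 138 members were called and 29 of them changed by at least 1. The share of all probe sets with such a change was not counted for that setting. The median over all 989 members was -0.097, with quartiles of -0.188 and -0.0545, and 959 of the 989 values were below 0, while the median over all probe sets was -0.0536. The number of calls rests on few arrays. Leaving out hira protoplast replicate 1 gave 2 and leaving out replicate 2 gave 3. Either hira root array left out gave 8, WT protoplast replicate 2 gave 10, WT protoplast replicate 1 gave 32, and either WT root array gave 75.

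The shift was seen on each array. The median over the members was -0.0239 and -0.0298 in hira protoplasts, 0.0547 and 0.0703 in WT protoplasts, -0.0094 and 0.0165 in WT roots, and -0.00641 and 0.00456 in hira roots. Hira protoplasts were the lowest group and WT protoplasts the highest, and roots of both genotypes lay between them. The hira protoplast mean was lower than the mean of the other 6 arrays, with a difference of -0.0486, beside a pooled SD of 0.012 between replicate array medians. Over all probe sets this difference was -0.0278, and over the other probe sets with a range under 1 it was -0.0296. Quantile normalization brought the members' difference to -0.0144, and recentring each array on its less variable probe sets to -0.019. Both hira protoplast arrays lay below the other 6 arrays for 797 of the 989 members (80.6%), beside 29% of all probe sets. After quantile normalization, added after the count was seen, this held for 355 members (35.9% beside 16%), and after recentring for 447 (45.2% beside 14%). Both lay above the other 6 for 6 members (0.607% beside 5.56%). Hira protoplasts were also the arrays with the low BioB spike-in and the low EXP18 values, and the part of either in the shift was not tested.

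**Figure D4:**
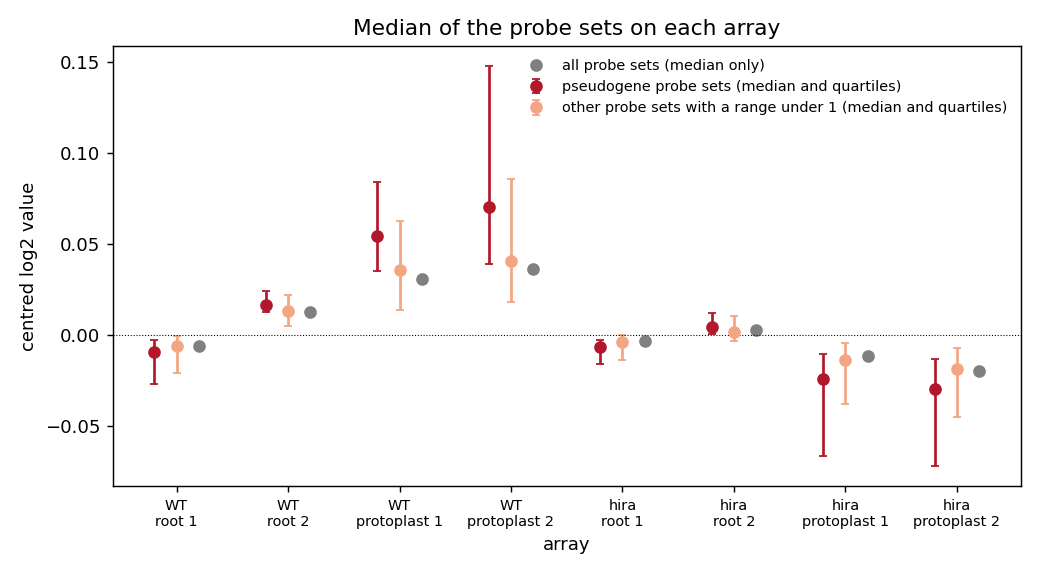
Median centred log2 value (vertical axis) on each of the 8 arrays (horizontal axis) over the pseudogene probe sets, the other probe sets with a range under 1, and all probe sets; bars are the quartiles over probe sets for the first 2 sets. Pseudogene medians are highest on the WT protoplast arrays (0.0547 and 0.0703) and lowest on the hira protoplast arrays (-0.0239 and -0.0298).

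Most members with a range under 1 shared this profile, and the varying members mostly did not. Across the 8 arrays, 756 of the 989 (76.4%) had a correlation of at least 0.9 with the profile of the array medians of the members, compared with 45.1% of the other probe sets with a range under 1 and 19.4% of all probe sets. By range, this held for 755 of the 938 members under 1 (80.5%) and for 1 of the 51 varying members (1.96%). The median correlation was 0.964 in the former and 0.294 in the latter. The correlations are a description, since the probe sets share the arrays and each member is part of the profile. Among the 51 varying members, 18 had both hira protoplast arrays below the other 6, beside 29% of all probe sets whatever their range. The share among all varying probe sets was not counted. Of the 18, 13 also had WT protoplast replicate 2 as their highest array. The 13 had ranges from 1.0 to 1.29 and correlations with the members' profile from 0.792 to 0.914. On hira protoplast replicates 1 and 2 they ranged from -0.88 to -0.34 and from -0.88 to -0.52, and on WT protoplast replicate 2 from 0.34 to 0.65. On hira root replicate 1 they lay between -0.10 and 0.0097, and on WT root replicate 1 between -0.32 and -0.10. AT3G23720, AT2G42050 and AT3G42930 were nearly alike on every array, with AT3G23720 at -0.31 and 0.02 in WT roots, 0.07 and 0.41 in WT protoplasts, -0.02 and 0.23 in hira roots, and -0.88 and -0.88 in hira protoplasts. The 13 were chosen by where these values are high and low, so no count of calls is given for them and their likeness is a description. The hira minus WT difference in protoplasts was -1.12 for AT3G23720 (SE 0.18, adjusted p = 0.0375), -1.11 for AT2G42050 (SE 0.18, adjusted p = 0.0388) and -1.02 for AT1G17900 (SE 0.17, adjusted p = 0.0417). Each of these 3 calls was lost on leaving out any array of the WT protoplasts, hira roots or hira protoplasts. They come from the fit to all probe sets, and since the 13 were chosen by these same values, they are no support for the 13 as a group.

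**Figure D5:**
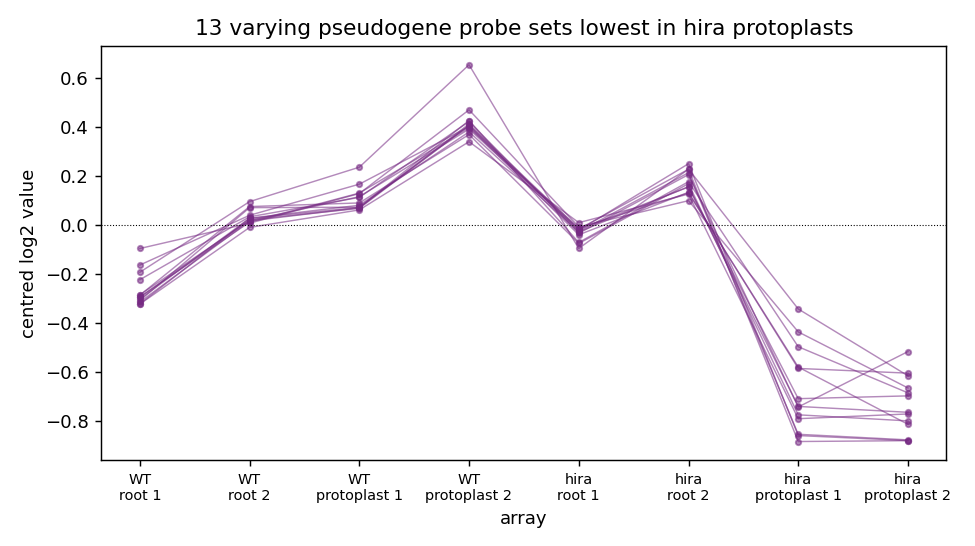
Centred log2 value (vertical axis) on each of the 8 arrays (horizontal axis) of the 13 varying pseudogene probe sets that are lowest in hira protoplasts and highest on WT protoplast replicate 2; each line is 1 probe set and joins its points only to guide the eye. The lines run together, at -0.88 to -0.34 and -0.88 to -0.52 on the hira protoplast arrays and at 0.34 to 0.65 on WT protoplast replicate 2.

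Unlike most members, 4 were called higher in hira than in WT protoplasts. AT3G48650 was higher by 1.79 (SE 0.21, adjusted p = 0.0242), a call lost without either WT protoplast or either hira root array. AT5G10850 was higher by 0.91 (SE 0.16, adjusted p = 0.0442), lost on leaving out any 1 of the 8 arrays. The other two were AT4G08220 (0.39) and AT3G42330 (0.33), named after their values were seen. CYTOSLEEPER, at 2.01 on average in hira and 0.92 in WT protoplasts, was not called in this comparison.

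The test of whether protoplasting acted differently in hira and WT called 11 members, or 1.11% beside 4.87% of all probe sets. In 3 the hira response was the higher one and in 8 the lower one, beside 2.61% and 2.26% of all. This split was 5 and 35 after quantile normalization and 4 and 5 after recentring. AT5G40920 had the largest difference, 2.52 (SE 0.15, adjusted p = 0.00774): it fell by 2.46 in WT, while in hira roots it was at -0.08 and -0.06 and in hira protoplasts at 0.05 and -0.08. Its neighbour AT5G40910 differed by 1.66 (adjusted p = 0.0413), while AT5G40960 on the other side, at 2.09, was not called (adjusted p = 0.111). AT5G10850 differed by 1.88 (SE 0.23, adjusted p = 0.0294) and AT3G48650 by 1.81 (SE 0.30, adjusted p = 0.0493). Among the 8 lower responses, AT2G06630 was at -1.21 (SE 0.20, adjusted p = 0.0492) and AT2G10840 at -0.99 (SE 0.17, adjusted p = 0.0497). Both were of the 13 described with the hira protoplasts. The median over all members was -0.0897, against -0.0504 over all probe sets. Of these 5 calls of members, only that of AT5G40920 passed under every alternative run. The count of 11 became 7 without WT root replicate 1, 5 without hira root replicate 2, 4 without WT root replicate 2 or WT protoplast replicate 2, 3 without hira root replicate 1, and 2 without WT protoplast replicate 1 or either hira protoplast array.

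Few members carry a gene symbol of their own in the RefSeq table. Beside CYTOSLEEPER, RSU1 (AT3G48130) varied, at -0.01 and 1.45 in WT roots, 0.98 and 0.21 in WT protoplasts, and between -0.10 and 0.01 on the hira arrays. The WT root replicates of RSU1 differed by more than any pair of group means. The cytochrome P450 pseudogenes CYP71B27 and CYP51G2 and the phloem lectin-like ATPP2-B3 had ranges of 0.17, 0.058 and 0.18 and did not vary. Over the 5 comparisons, 147 members (14.9%) were called at least once, against 38.9% of all probe sets.

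Genes of transposon silencing and histone deposition were mostly not measured by a single-gene probe set: 2 of 54 listed loci were, the chromatin remodeller ATRX (AT1G08600) and the DNA demethylase DME (AT5G04560, 3 probe sets). ATRX, which in animals deposits H3.3 at repeats, was at 0.76 and 0.96 in WT roots, -0.32 and -0.01 in WT protoplasts, -0.92 and -1.11 in hira roots, and 0.01 and 0.14 in hira protoplasts. It was high in WT roots and low in hira roots, with protoplasts of both genotypes between them. The hira minus WT difference of ATRX in roots was -1.88 (SE 0.14, adjusted p = 0.00863). It fell by 1.03 (SE 0.14, adjusted p = 0.00997) in WT and rose by 1.09 (SE 0.14, adjusted p = 0.00936) in hira. The response of ATRX differed between the genotypes by 2.12 (SE 0.20, adjusted p = 0.0203), a call lost without either hira protoplast array. In protoplasts it differed by 0.24 (adjusted p = 0.312). The first 2 of these calls were lost with only the 4 arrays compared, and the rise in hira without hira protoplast replicate 2. None of the 3 DME probe sets was called in any comparison, with adjusted p-values from 0.061 up.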

How the data were processed

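RNA from 8 samples was biotin-labelled with a 3′ kit and hybridised to 1 Affymetrix array each. The deposited values were made with GCRMA, per the submitters' processing notes (no version named), and are treated as log2, although no source used here names the base. As deposited, each probe set has a median of 0 over the 8 arrays. All 8 columns of values were used. Controls (64 probe sets) were kept apart.

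Of the other 22746 probe sets, 13513 have 1 gene in the platform annotation. Over the whole array, controls included, 503 have several genes and 8794 have none listed. RefSeq (TAIR10.1) gave a biotype for 13436 of the single-gene ones. It served for names, biotypes and neighbours, and no coordinates are given because the files name no build. Sample titles gave the group and replicate number.

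A model of 4 group means over all 8 arrays was fitted in limma 3.58.1 (lmFit, eBayes; R 4.3.3), with 4 residual and 0.742 prior degrees of freedom, and 5 two-sided contrasts were tested with Benjamini-Hochberg adjustment over all 22746 probe sets, called under 0.05. SE is that of the fit. The fit was tested on simulated data. The number of arrays limits the precision. No p is given for the members as a set.

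Named loci are the 30 members with the largest range, up to 8 per direction and comparison among called members with a change of at least 1 and no overlap, the 3 on each side of a range of 1, varying members with a symbol, and called genes of the silencing list. The members, lists and rules were chosen with earlier results of these data known. Alternatives were quantile normalization, recentring, an SD filter of 0.2, eBayes with trend and robust, only the arrays compared, a replicate block, 1 probe set per gene and leaving out each array.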

Additional observations from a re-analysis of the deposited data

Results flagged for a closer look

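The 5 pseudogene loci and the 1 silencing gene named here were called by the limma test of the difference between the genotypes' responses to protoplasting. It is given as the hira response minus the WT response in log2 units. Only the call of AT5G40920 passed under every alternative run. Of 14 alternatives, ATRX was lost in 2, AT5G10850 in 5, AT3G48650 in 8, and AT2G06630 and AT2G10840 in 12 each. The difference between responses was 2.52 for AT5G40920, 1.88 for AT5G10850 and 1.81 for AT3G48650. It was -1.21 for AT2G06630 and -0.99 for AT2G10840. For the silencing gene ATRX (AT1G08600) it was 2.12. AT5G40920, AT5G10850 and ATRX were highest in WT roots, the arrays with the lowest 5′ minus 3′ GAPDH difference and the highest spike-ins. AT2G06630 and AT2G10840 were lowest in hira protoplasts, the arrays with the low BioB spike-in. The part of these controls in the differences was not tested.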

How the results depend on the processing

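Of 57 calls of named loci, 11 calls of 9 loci passed under every alternative run, 41 were lost on leaving out at least 1 array, and 0 changed direction. Where no reason is given for a moved value, the cause was not tested. With quantile normalization 98 were called in the hira response and 40 in the difference. With the SD filter, which tests fewer probe sets, the counts were 10 in the WT response, 21 in the hira response, 11 between protoplasts and 4 in the difference. With trend and robust they were 164 in the WT response, 527 between protoplasts and 5 in the difference. With only the 4 arrays compared, which leaves fewer samples, they were 5 in the WT response, 6 between protoplasts and 0 between roots, where 15 had an unadjusted p under 0.05 in limma. Replicate numbers did not pair the samples: replicate deviations of same-numbered arrays correlated between -0.096 and 0.048 across the group pairs. With the replicate block the counts were 44 in the WT response, 53 between protoplasts and 5 in the difference. The block changed no other count by more than 1.5 times. The lower and higher calls between protoplasts were 121 and 4, 130 and 8 with quantile normalization, and 81 and 4 with recentring. Of the silencing list's probe sets, 2 were called in the WT response with the SD filter and 0 with the 4 arrays compared, and 0 between roots with those arrays. With a range of at least 0.5, 137 members varied, 11 highest in WT roots and 98 in WT protoplasts. With a range of at least 2, 14 varied, 7 highest in hira protoplasts, 3 in WT roots, 2 in WT protoplasts and 2 in hira roots. With quantile normalization 84 varied, 11 highest in WT roots and 51 in WT protoplasts. The median shift of the members in hira protoplasts was -0.0144 with quantile normalization and -0.019 with recentring. Leaving out 1 array at a time gave 12 to 59 calls in the WT response, 7 to 40 in the hira response, 2 to 10 between roots, 2 to 75 between protoplasts and 2 to 7 in the difference. It gave 1 to 2 calls of the silencing list in the WT response, 0 to 1 in the hira response, 1 between roots, 0 between protoplasts and 0 to 1 in the difference. It left 41 to 50 varying members, 15 to 25 highest in WT protoplasts, 10 to 12 in hira protoplasts, 5 to 8 in WT roots and 5 to 11 in hira roots, and a shift of -0.0548 to -0.0389. Where a group keeps 1 array, that array is assumed to vary like the other groups. Promoter motifs were not run, and centred values carry no signal over background.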
